A study of Homo sapiens with 4 samples.

Results

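The bone morphogenetic protein (BMP) and transforming growth factor beta (TGF-beta) pathways are commonly read through a small set of genes that respond to them or restrain them, and 10 of these were followed here in A549 cells treated with embelin. They were ID1, ID2, ID3, ID4, SMAD6, SMAD7, SKIL, BAMBI, FST and HES1, taken from the array as the non-control probes that carry the gene's name or a RefSeq transcript of it. The arrays hold 13 probes for the 10 genes, out of 50238 different probes, and 9 of the 10 genes were among the 17649 genes or transcripts tested. A549 cells derive from an adenocarcinoma of the human lung. Embelin, a plant compound, is a benzoquinone that carries an alkyl chain. The 2 control samples were untreated A549 cells (0 µM embelin) and the other 2 had received 15 µM embelin for 4 h, all after transfer to medium of lower serum content. Each sample was labelled with Cy3 and hybridized to 1 array, all on 1 slide. The labels name replicates but not separate cultures, so the p-values measure the spread between these samples, which may be technical. The microarray was meant to point to the pathways at work in the early phase of embelin induced apoptosis.

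As background, ligands of the BMP and TGF-beta families bind paired serine and threonine kinase receptors at the cell surface, which phosphorylate receptor SMAD proteins. BMP receptors use mainly SMAD1, SMAD5 and SMAD9, whereas TGF-beta and activin receptors use SMAD2 and SMAD3, and both kinds pair with SMAD4 to enter the nucleus. The ID genes are direct BMP targets in many cell types, SMAD7 and SKIL are rapid TGF-beta targets, and SMAD6, SMAD7, BAMBI, SKIL and FST each feed back on the signal. In lung epithelium these pathways take part in branching, in differentiation and in the response to injury.

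The array signals were brought to a common 75th percentile and put on the log2 scale, so a difference of 1 in normalized log2 signal is a 2-fold change. The scanner software called 66.7% of probes well above background for control replicate 1 and 66.4% for embelin replicate 2, but 50.3% for control replicate 2 and 51.2% for embelin replicate 1. Differences are therefore also given between the arrays of like detection, that is, embelin replicate 2 against control replicate 1 and embelin replicate 1 against control replicate 2. The part of the detection rate in the results was not tested. All 8 epithelial markers examined, among them KRT8, EPCAM and CDH1, were well above background on all 4 arrays. Of 7 fibroblast markers 2 to 4 were detected per array, of 5 endothelial markers 0 to 3 and of 6 leukocyte markers 2 to 5. The summed signal of the epithelial list was 719512 and 763420 in the controls and 640309 and 660119 with embelin. Of its 8 genes 7 had a lower mean with embelin, and limma called 0 after adjustment. Over the 4 arrays the summed signal of the other lists ranged from 1145 to 2090 for fibroblasts, from 96.9 to 127 for endothelium and from 1795 to 2556 for leukocytes. The part of these cell types in the results was not tested.

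BAMBI and SMAD6, both inhibitors of the pathway, were the genes with the lowest values after embelin relative to control, and FST and SKIL, also inhibitors, were those with the highest. BAMBI alone of the 9 genes tested was called by limma after Benjamini-Hochberg adjustment over all genes. The call was for a fall, against 0.561% of all genes tested that were called lower, and no member was called higher, against 1.25% of all genes. By the rule in the study's methods, at least a 2-fold difference with an unadjusted p under 0.05 (here in limma), 2 members were lower (BAMBI and SMAD6) and 1 was higher (FST), against 3.99% and 4.26% of all genes. Counts by the methods' rule below also take the p from limma, unless another test is named. BAMBI, SMAD6 and FST passed as well with the test that the methods name. Embelin and control values did not overlap for 6 of the 9 genes, as for 51.8% of the genes measured on all 4 arrays. Over the 9 genes the median log2 fold change was -0.14, and over all genes tested it was -0.06. In size, without regard to sign, the median was 0.53 for the 9 genes and 0.30 for all genes tested. In whole-culture RNA a loss of some cells and less RNA per cell cannot be told apart.

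**Figure D1:**
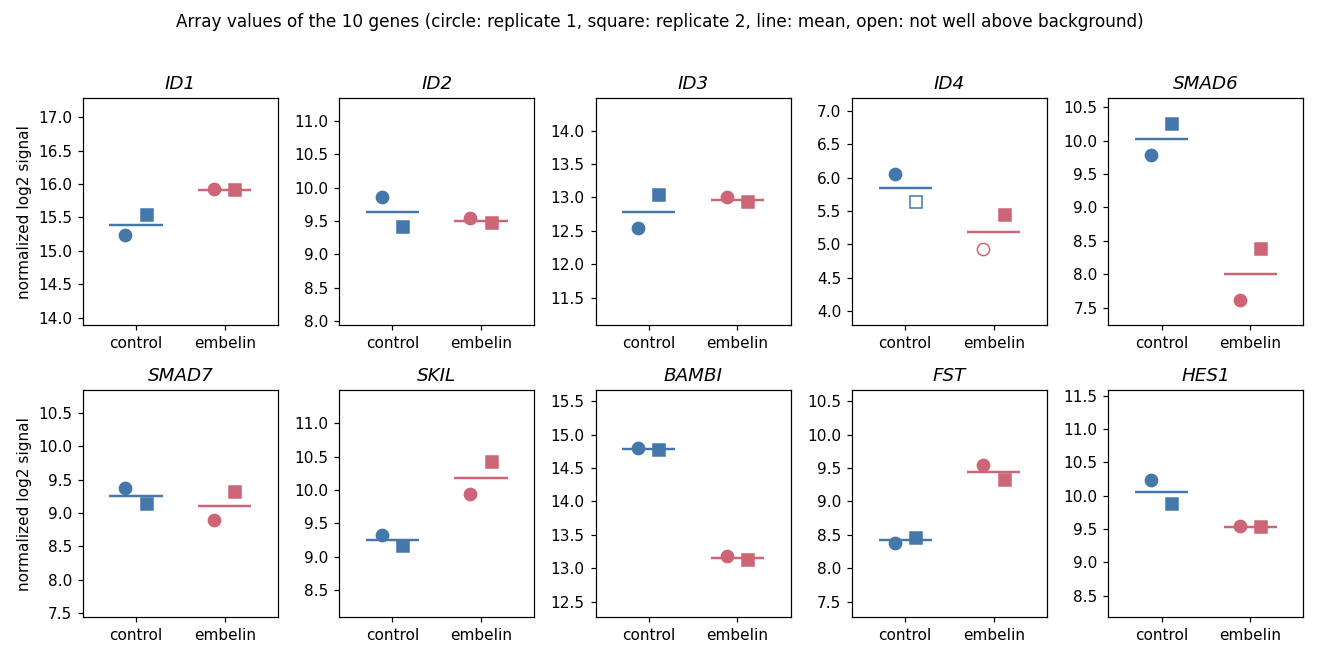
Normalized log2 signal (vertical axis, a window of equal height in each panel) of the 10 genes on the 4 arrays, by group. Circles are replicate 1, squares replicate 2, lines the group means, and open symbols mark spots not well above background. BAMBI, SMAD6, FST, SKIL, ID1 and HES1 have groups that do not overlap, whereas ID2, ID3 and SMAD7 overlap.

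BAMBI encodes a transmembrane decoy that resembles a type I receptor but lacks the kinase domain, and so blunts BMP, activin and TGF-beta signals. Its normalized log2 signal was 14.80 and 14.78 without embelin and 13.18 and 13.12 with it. The arrays of a group lay close together, with an SD of 0.02 among the controls and 0.04 among the treated (n = 2 each), and the groups were far apart. BAMBI fell by 1.64 on the log2 scale, a 3.11-fold difference (standard error, SE, 0.16, 95% interval -2.07 to -1.21, adjusted p = 0.0380 in limma). Between arrays of like detection the difference was nearly the same, at -1.68 for the pair with more probes detected and -1.60 for the other pair. BAMBI was called under 5 of 14 alternatives, with an adjusted p of 0.00183 to 0.392 over all of them. For a gene with 1 kept probe, the setting of each probe on its own is not counted among these 14. In that setting BAMBI was called as well (adjusted p = 0.0480 in limma). The call was lost with the deposited table (0.0508), without a filter on dim probes, by the methods' t-test, with a block for the replicate number or the array background, and with each array left out. Leaving out any 1 of them kept the difference between -1.67 and -1.61, but the adjusted p of limma then lay between 0.0948 and 0.217, and 0 genes in all were called.

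SMAD6 encodes an inhibitory SMAD that acts mainly on BMP receptors and on SMAD1. It had the largest difference of the 9 genes in size. Its normalized log2 signal was 9.79 and 10.25 without embelin and 7.62 and 8.37 with it. Both embelin arrays were more than 1 log2 unit below both controls, but the SD within a group was 0.32 among the controls and 0.53 among the treated (n = 2 each), well above that of BAMBI. On the log2 scale the difference was -2.02 (SE 0.34, 95% interval -2.96 to -1.08), or 4.06-fold in mean, and it was not called after adjustment (adjusted p = 0.0804 in limma). Between arrays of like detection the log2 difference was -1.42 for the pair with more probes detected and -2.63 for the other. SMAD6 was called under 3 of the alternatives, at an adjusted p of 0.0216 to 0.0413 from limma, and over all 14 alternatives the adjusted p ranged from 0.0216 to 0.459.

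SMAD7, the other inhibitory SMAD, acts on TGF-beta and BMP receptors alike. Its normalized log2 signal was 9.38 and 9.13 without embelin and 8.90 and 9.31 with it, so the groups overlapped. Embelin minus control came to -0.15 (SE 0.23, 95% interval -0.78 to 0.47, adjusted p = 0.773 in limma). The pair of arrays with more probes detected differed by -0.07 and the other by -0.24. The interval leaves room for a difference of up to 0.78 downward or 0.47 upward. The intervals of SMAD6 and SMAD7 did not overlap, but the difference between the genes was not tested.

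SKIL encodes SnoN, a nuclear corepressor that binds SMAD2, SMAD3 and SMAD4 on DNA and is itself a target of TGF-beta. Its normalized log2 signal was 9.33 and 9.16 without embelin and 9.94 and 10.42 with it. Both embelin arrays were above both controls, with the higher value on embelin replicate 2. The difference was 0.93 (SE 0.24, 95% interval 0.29 to 1.58), or 1.91-fold in mean, with an adjusted p of 0.149 from limma. Without embelin replicate 2 it was 0.69, and without embelin replicate 1 it was 1.17. The pair of arrays with more probes detected differed by 1.09 and the other by 0.77. SKIL was not called under any of the 14 alternatives, at an adjusted p of 0.0743 to 0.617 from limma or the methods' test.

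FST encodes follistatin, a secreted protein that binds activin nearly irreversibly and some BMPs more weakly. Its normalized log2 signal was 8.38 and 8.46 without embelin and 9.55 and 9.32 with it. The groups were separate, with an SD of 0.06 among the controls and 0.16 among the treated (n = 2 each). On the log2 scale the difference was 1.02 (SE 0.18, 95% interval 0.53 to 1.50), or 2.02-fold in mean, and the adjusted p from limma was 0.0846. It was called by 2 of the alternatives, with an adjusted p of 0.0466 when the test was kept to probes well above background on all 4 arrays and of 0.0474 with limma's trend and robust options. The pair of arrays with more probes detected differed by 0.94 and the other by 1.09. Normexp background correction brought the log2 fold change to 0.91, under the 2-fold line of the methods' rule, as did leaving out control replicate 1 (0.98) or embelin replicate 1 (0.90).

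**Figure D2:**
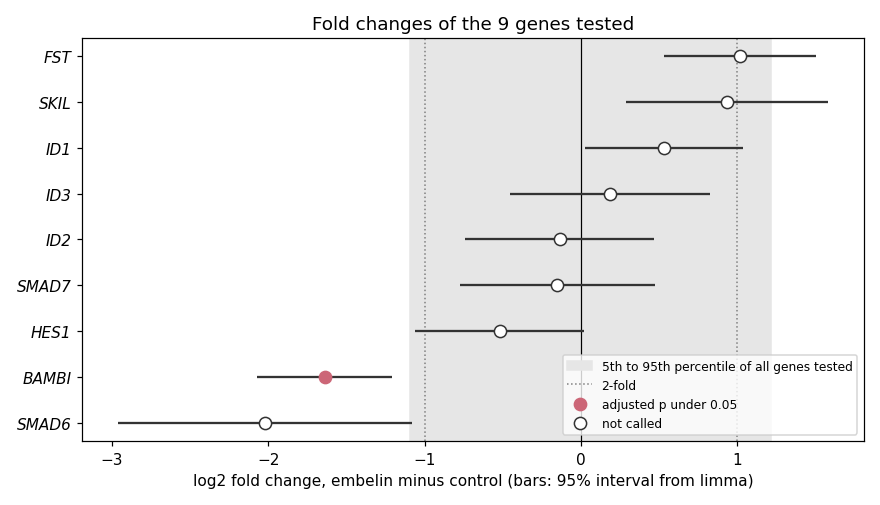
Log2 fold change of the 9 genes tested (horizontal axis, embelin minus control), with 95% intervals from limma; the filled point is the call after adjustment over all genes, the dotted lines are 2-fold and the grey band is the 5th to 95th percentile of all genes tested. BAMBI and SMAD6 lie to the left of the band, which runs from -1.09 to 1.22, and the other 7 lie within it.

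For the 4 genes with the largest differences, the DNA in front of the gene is shown, and for 3 of them also the probe that read it. The files give no genome position for these probes. SMAD6, SKIL and FST were each read by 1 probe of 60 bases, with a GC content of 60.0%, 43.3% and 43.3%. The probe sequences, as the files give them, are:
SMAD6: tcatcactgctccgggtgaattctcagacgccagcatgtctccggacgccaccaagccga
SKIL: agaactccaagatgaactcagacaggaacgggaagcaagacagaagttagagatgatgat
FST: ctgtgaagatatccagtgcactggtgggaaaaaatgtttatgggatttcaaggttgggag

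The 250 bases before the annotated start of transcription, from RefSeq on GRCh38.p14, were available for all 10 genes, with 3 starts for SMAD7 and 12 such windows in all. They were searched on both strands for GGCGCC, a motif described in BMP-responsive promoters, CAGAC, the core of the box bound by SMAD3 and SMAD4, TGANTCA (AP-1), TGACGTCA (the cyclic AMP response element), CACGTG (an E-box), CACNAG (the N-box bound by HES proteins) and TGGGAA (the core bound by RBPJ). No motif is part of another in this list. In the windows printed, 5′ to 3′ on the strand of the gene, capitals mark matches to the first 4 of these motifs on either strand:
BAMBI (chr10:28677271-28677520, plus strand): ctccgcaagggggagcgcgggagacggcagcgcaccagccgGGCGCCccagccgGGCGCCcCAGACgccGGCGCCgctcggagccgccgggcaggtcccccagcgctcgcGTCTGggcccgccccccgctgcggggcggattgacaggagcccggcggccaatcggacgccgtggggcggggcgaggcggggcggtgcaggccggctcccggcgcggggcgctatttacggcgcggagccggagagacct
SMAD6 (chr15:66701986-66702235, plus strand): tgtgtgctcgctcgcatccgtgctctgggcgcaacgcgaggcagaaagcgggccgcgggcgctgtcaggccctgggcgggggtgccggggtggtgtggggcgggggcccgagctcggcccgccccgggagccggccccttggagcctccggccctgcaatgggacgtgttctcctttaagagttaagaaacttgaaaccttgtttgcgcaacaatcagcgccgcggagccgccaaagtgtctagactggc
SKIL (chr3:170357465-170357714, plus strand): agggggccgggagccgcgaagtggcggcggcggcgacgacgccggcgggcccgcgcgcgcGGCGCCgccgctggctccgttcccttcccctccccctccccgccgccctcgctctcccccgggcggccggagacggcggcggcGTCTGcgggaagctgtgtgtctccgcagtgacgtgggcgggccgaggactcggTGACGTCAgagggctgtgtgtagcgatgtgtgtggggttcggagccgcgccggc
FST (chr5:53480379-53480628, plus strand): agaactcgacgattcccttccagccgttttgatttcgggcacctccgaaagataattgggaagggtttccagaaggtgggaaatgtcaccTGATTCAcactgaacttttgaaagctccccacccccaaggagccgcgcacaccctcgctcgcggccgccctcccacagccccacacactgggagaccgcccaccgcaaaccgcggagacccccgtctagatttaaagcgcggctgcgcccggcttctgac

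The BAMBI window held GGCGCC 3 times, starting 209, 196 and 181 bases before the start of transcription, and CAGAC 2 times, at 189 and 140 bases. SKIL held GGCGCC once, 190 bases before the start, CAGAC once, and TGACGTCA once at 54 bases. FST held TGANTCA once, 160 bases before the start, and SMAD6 held none of the 7 motifs in this window. GGCGCC thus occurred for 2 of the 10 genes (2 of the 12 windows), against 16.4% of all 35116 windows of this length. CAGAC occurred for 6 genes (7 of the 12 windows) against 38.0%, TGANTCA for 1 gene against 6.6%, and TGACGTCA for 1 gene against 1.6%. For the motifs other than CAGAC the number of windows with a match equals the number of genes. CACNAG occurred for 3 genes (ID1, BAMBI and HES1) against 32.0%, TGGGAA for 3 genes (SMAD7, FST and HES1) against 20.8%, and CACGTG for 0 genes against 6.3%. The GC content of the 12 windows ran from 48.0% to 81.2% with a median of 64.0%, and the median over all windows was 58.0%. These matches describe letters and do not show binding.

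The ID proteins are helix-loop-helix proteins without a DNA-binding region, which pair with E proteins and keep them off DNA. ID1 had a normalized log2 signal of 15.24 and 15.53 without embelin and of 15.93 and 15.91 with it, and none of its spots was saturated. Both embelin arrays lay above both controls and close to each other (SD 0.01, against 0.20 in the controls). Embelin minus control came to 0.53 (SE 0.19, 95% interval 0.02 to 1.04), or 1.44-fold in mean, and it was not called after adjustment (adjusted p = 0.241 in limma). With 1 array left out it ranged from 0.39 to 0.68. Between arrays of like detection it was 0.67 for the pair with more probes detected and 0.39 for the other.

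ID2 was read by 2 kept probes. The brighter one was at 9.86 and 9.42 without embelin and at 9.54 and 9.46 with it, and the dimmer one at 9.13 and 8.76 and at 9.10 and 9.03. At both probes the embelin values lay between the control values. The difference was -0.14 at the first (SE 0.22, 95% interval -0.74 to 0.47, adjusted p = 0.794 in limma) and 0.12 at the second, so its sign depended on the probe. ID3 was at 12.53 and 13.03 in the controls and at 13.00 and 12.93 with embelin, again between the controls, and its log2 fold change was 0.18 (SE 0.23, 95% interval -0.46 to 0.82, adjusted p = 0.727 in limma). Between arrays of like detection both genes had differences of opposite sign, which in the pair with more probes detected were -0.40 for ID2 and 0.40 for ID3, and in the other 0.12 and -0.03.

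ID4 was near the detection limit. Its 1 probe was at 6.05 and 5.64 without embelin and at 4.93 and 5.44 with it. Control replicate 1 and embelin replicate 2, the arrays with more probes detected, were well above background and the other 2 were not, so ID4 was left out of the test.

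HES1, a repressor of transcription and a classical Notch target that BMP and TGF-beta can also induce, was read by 3 probes. The brightest was at 10.23 and 9.88 without embelin and at 9.54 and 9.53 with it, and a second at 10.10 and 9.87 and at 9.21 and 9.07. At both, both embelin arrays lay below both controls. On the log2 scale the difference was -0.52 at the brightest (SE 0.20, 95% interval -1.06 to 0.02, adjusted p = 0.268 in limma) and -0.85 at the second (SE 0.19, adjusted p = 0.141 from limma with each probe counted on its own). At the brightest probe the pair of arrays with more probes detected differed by -0.70 and the other by -0.34. The third probe was well above background for embelin replicate 2 alone and was left out.

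**Figure D3:**
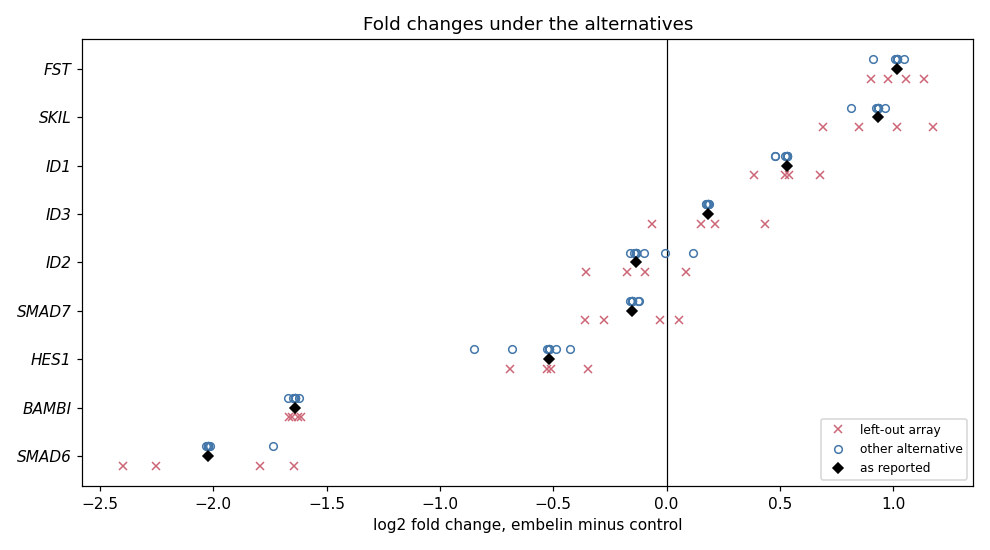
Log2 fold change of the 9 genes (horizontal axis, embelin minus control) as reported (diamonds), with 1 array left out (crosses) and under the other alternatives (circles; for ID2 and HES1 also the second probe). FST, SKIL, ID1, HES1, BAMBI and SMAD6 keep their side of 0 throughout, and ID2, ID3 and SMAD7 cross it.

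The other genes of the pathway were examined as 9 lists of 120 different genes, of which 85 were tested. After adjustment limma called 3 of them higher and 4 lower, against 1.25% and 0.561% of all genes. By the methods' rule, with the p from limma, 15 were higher and 8 lower, against 4.26% and 3.99%. With the test that the methods name, ACVR1, BMP2, KLF10, ETS1, RBPJ, TOB1, GATA2 and NRARP did not pass, and the rest of these genes did. Their median log2 fold change was 0.05. The groups did not overlap for 51 of the 85, near the 51.8% of all genes. For 5 of the 7 calls (INHBA, BMP4, TGFBR3, ATOH8 and GATA3) the dimmer group was well above background on 1 array of 2. These genes passed the filter through the brighter group, so a difference was partly set by the filter, and the size of each depends on signals close to background. All 7 calls were lost with any 1 array left out.

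Of the 10 ligands tested, limma called INHBA, BMP6 and GDF15 higher and BMP4 lower. INHBA encodes a subunit of activin, which FST binds, and it differed by 5.31 on the log2 scale (adjusted p = 0.0204 in limma), with 1 of its 2 control arrays well above background, and by 4.02 with normexp. BMP6 differed by 2.95 (adjusted p = 0.0204 in limma) and GDF15, a stress-induced member of the family, by 2.08 (adjusted p = 0.0380 in limma, 0.0508 with the deposited table). BMP4 differed by -3.34 (adjusted p = 0.0268 in limma), with 1 of 2 embelin arrays well above background. BMP2 was not called but passed the methods' rule in limma, at 1.19 (adjusted p = 0.209 in limma). It did not pass with the test that the methods name. It was under the 2-fold line with normexp (0.80), without control replicate 2 (0.86) and without embelin replicate 1 (0.83).

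At the receptors, TGFBR3 was the 1 gene called among the 10 tested, as lower. TGFBR3 (betaglycan) is a co-receptor that presents TGF-beta2 and binds inhibin. Its normalized log2 signal was 8.29 and 7.85 without embelin and 4.90 and 5.51 with it, a difference of -2.87 (SE 0.30, adjusted p = 0.0451 in limma), with 1 embelin array of 2 well above background. With normexp it was -1.63 (adjusted p = 0.0231 in limma), and the call was lost with quantile normalization (0.0554) and the deposited table (0.0592). TGFBR2, the type II receptor for TGF-beta, was at 14.32 and 14.05 in the controls and at 12.79 in both embelin samples. It differed by -1.40 (SE 0.18) and narrowly missed the threshold in limma, at an adjusted p of 0.0550. Limma called TGFBR2 with normexp (0.0274), with all 4 arrays well above background (0.0256) and with trend and robust (0.00588). It was not called in the other settings, at 0.418 without a filter on dim probes. The second kept probe of TGFBR2 was at -1.16 (adjusted p = 0.0745 in limma with each probe on its own). TGFBR1, its type I partner, lay the other way, at 6.53 and 6.12 in the controls and 7.69 and 7.46 with embelin. The difference was 1.25 (SE 0.23, adjusted p = 0.0881 in limma), but 0.84 with normexp, under the 2-fold line. ACVR1, a BMP type I receptor, also passed the methods' rule in limma, with a difference of 1.21 and an adjusted p of 0.125 from limma. It did not pass with the test that the methods name. It was at 0.99 without control replicate 2 and at 0.96 without embelin replicate 2, both under the 2-fold line.

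Of the SMADs that carry the signal, none of the 5 tested was called or passed the methods' rule, and the values ran from -0.60 for SMAD1 (SE 0.17, adjusted p = 0.180 in limma) to 0.74 for SMAD5 (SE 0.33, adjusted p = 0.331 in limma), with SMAD3 at 0.23. SMAD5 was at 0.32 without control replicate 2 and at 1.17 without control replicate 1, and SMAD3 at 0.04 without embelin replicate 2 and at 0.43 without embelin replicate 1. SMAD9 was too dim to be tested. Among 11 ubiquitin ligases, corepressors and partners of SMADs, limma called 0. TOB1, an antiproliferative protein reported to bind SMADs, was the 1 gene to pass the methods' rule in limma, with a difference of -1.06. It did not pass with the test that the methods name. It was at -0.83 without control replicate 2 and also without embelin replicate 1, under the 2-fold line. The second kept probe of TOB1 was at -1.24 and the mean over its probes at -1.15. ZEB2 was at 0.52 (1 of 2 control arrays well above background) and SMURF1 at 0.38. Among the 8 other secreted antagonists 0 were called and 0 passed the methods' rule, and the largest differences were 0.88 for FSTL3, a relative of FST, 0.70 for CHRDL2 and -0.52 for CHRD (1 of 2 embelin arrays well above background).

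**Figure D4:**
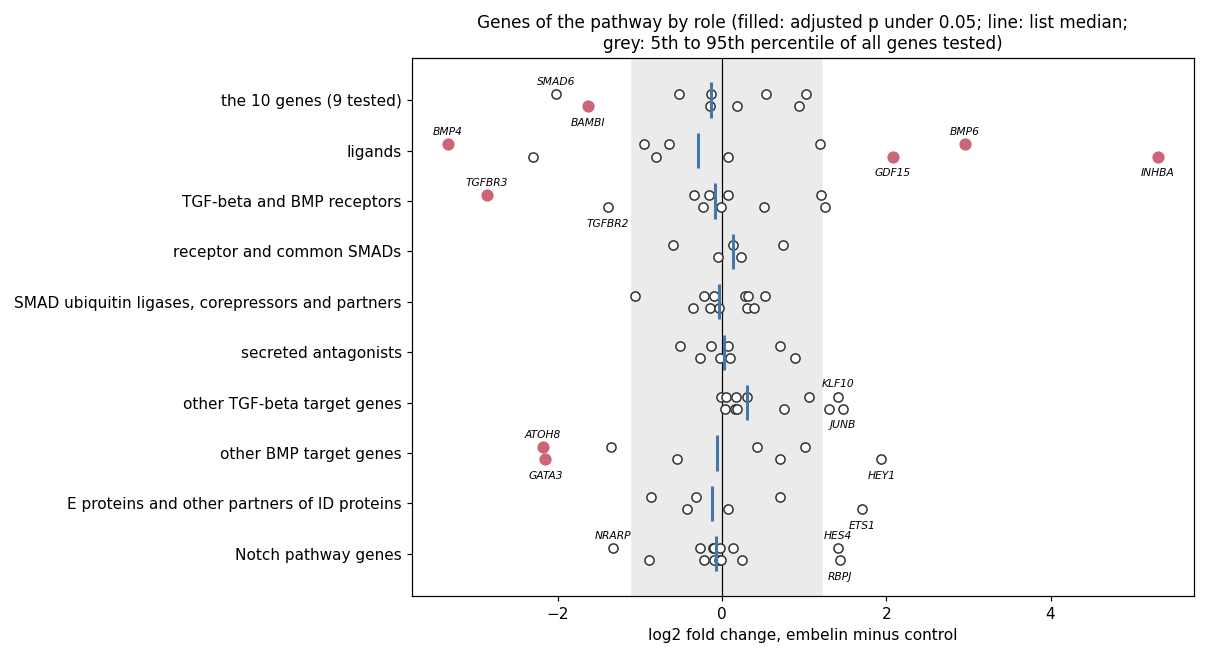
Log2 fold change (horizontal axis, embelin minus control) of the genes tested in each list, by role. One of the other TGF-beta targets is not plotted but counts in its list's median. Filled points were called by limma after adjustment, blue lines are list medians, and the grey band is the 5th to 95th percentile of all genes tested. The calls lie among the ligands (4), the other BMP targets (2), the receptors (1) and the 10 genes (1), and other TGF-beta targets lie mostly to the right of 0. The lists were chosen with earlier results of these data known.

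The list of other genes known as TGF-beta targets was chosen with earlier results of these data known, so counts over it are descriptive only. Its genes had higher means with embelin in 12 of 13 cases, but limma called 0 of them after adjustment. Their median log2 fold change was 0.31, whereas over all genes tested the median was -0.06 and in size 0.30. The groups did not overlap for 7 of the 13, near the 51.8% of all genes. By the methods' rule in limma 5 of the 13 were higher, against 4.26% of all genes, and JUNB, KLF10, SPHK1 and COL1A1 were among them. Of the 5, KLF10 did not pass with the test that the methods name. COL1A1 was at 1.30, but at 0.36 in the deposited table and at 0.83 with normexp, both under the 2-fold line. Its other kept probes were at 1.83 and 1.76 (adjusted p = 0.0480 and 0.0515 in limma with each probe on its own). The mean over the COL1A1 probes was at 1.63. JUNB, a subunit of AP-1, was at 12.84 and 12.80 in the controls and at 14.17 and 14.41 with embelin, a difference of 1.47 (SE 0.18, adjusted p = 0.0513 in limma). Its second kept probe was at 0.42 and the mean over its probes at 0.94, so JUNB passed the methods' rule by its brightest probe and not by the mean. KLF10, a zinc finger repressor first found as a TGF-beta inducible gene, had one of 1.42 (SE 0.30, adjusted p = 0.114 in limma).

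Other genes known as BMP targets had 4 higher and 4 lower means, with a median of -0.06. ATOH8, a helix-loop-helix factor, fell by 2.18 on the log2 scale (SE 0.24, adjusted p = 0.0475 in limma). With normexp it was at -0.95 (adjusted p = 0.0565 in limma), and the call was also lost with quantile normalization, the deposited table, limma's trend and robust options and the mean over probes (0.0509 to 0.0680). GATA3, a zinc finger factor, fell by 2.15 (SE 0.16, adjusted p = 0.0260 in limma), but was at -1.04 with normexp and then not called (0.0593). Both had 1 of 2 embelin arrays well above background. HEY1, which Notch also induces, was at 5.39 and 5.01 in the controls, of which 1 array was well above background, and at 6.98 and 7.30 with embelin, and its log2 fold change was 1.94 (adjusted p = 0.0501 in limma), or 1.02 with normexp (adjusted p = 0.0374 in limma). GATA2, also with 1 of 2 embelin arrays well above background, passed the methods' rule in limma at -1.35. It did not pass with the test that the methods name, and was at -0.34 with normexp and at -0.76 without embelin replicate 1.

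None of the 6 tested partners of ID proteins was called by limma. ETS1 passed the methods' rule in limma with a difference of 1.70 (adjusted p = 0.108 in limma), but not with the test that the methods name. The E protein gene TCF4 was at -0.87 (adjusted p = 0.106 in limma) and ETS2 at 0.70. In the Notch pathway, to which HES1 also belongs, limma called 0 of 14 genes. HES4, a relative of HES1, had a difference of 1.41 (SE 0.17, adjusted p = 0.0505 in limma). RBPJ, the DNA-binding partner of Notch, had one of 1.43 (adjusted p = 0.161 in limma). NRARP, a feedback inhibitor of Notch, had one of -1.33 (adjusted p = 0.171 in limma), with 1 of 2 embelin arrays well above background. Its other kept probes were at -2.03 and -1.72 (adjusted p = 0.0961 and 0.0622 in limma with each probe on its own). Without control replicate 2 RBPJ was at 0.94, and without embelin replicate 1 NRARP was at -0.86. HES4 and HES1 thus had differences of opposite sign, and neither was called.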

How the data were processed

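RNA of 2 untreated and 2 embelin treated A549 samples was hybridized to custom whole-genome 60-mer arrays (1 colour). The authors deposited the intensities written by Agilent Feature Extraction 10.7.3.1, background-subtracted and detrended within each array and not normalized between arrays, and a table of probe averages of these intensities. Each array was scaled to a common 75th percentile, as the methods name, floored at 1 and converted here to log2 values, so the log2 scale is not that of the deposited values. Outlier spots were left out, spots of a probe averaged, probes kept if both arrays of either group were well above background, and the brightest kept probe taken for a gene. Of 50238 probes, 28595 were named by accession through RefSeq (GRCh38.p14), 2341 through a probe of the same name, and 19302 by the name in the files. Embelin was compared with control by limma 3.58.1 in R 4.3.3, with Benjamini-Hochberg adjustment over 17649 genes, a prior of 2.17 degrees of freedom and a prior SD of 0.217. Simulated data with known changes were used to test the fit.

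With 2 arrays a group the smallest exact permutation p is 0.333, so no such test is given. Precision is limited by the number of arrays. The 10 genes and the lists were chosen with earlier results of these data known. The genes named are the 10, and in each pathway list those called or, where under 3 were called, the 3 with the largest change. The epithelial markers named are examples. ACVR1, BMP2, SPHK1, COL1A1 and GATA2 are named in addition because they complete a count, a choice made after their values were seen. A gene of the TGF-beta target list that the rule names is not reported here. The alternatives were normexp (offset 50), quantile normalization, the deposited table, no filter or a filter on all 4 arrays, moderation with limma's trend and robust options, a block for the replicate number, the t-test that the methods name, the mean over probes, each probe on its own, and each array left out. The array background as a block was added after the values were seen.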

Additional observations from a re-analysis of the deposited data

How the results depend on the processing

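Of the 128 values of the 9 genes under the alternatives, 110 kept the direction and the side of the threshold, 5 gained a call, 9 lost one and 4 changed sign. The sign changes were ID2 at its second probe (0.12) and without control replicate 1 (0.086, range -0.36 to 0.086 with 1 array left out), ID3 without control replicate 1 (-0.066, range -0.066 to 0.43) and SMAD7 without embelin replicate 1 (0.053, range -0.36 to 0.053). The second kept probe of SMAD3 was at -0.10. The cause of these shifts was not tested.

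With 1 array left out, with the replicate block, with the array background as a block, without a filter on dim probes and by the methods' t-test, limma or that test called 0 genes higher, 0 lower and 0 of the 9 genes after adjustment. Under the replicate block BAMBI had an adjusted p of 0.0860 from limma. The correlation of the replicate differences of the groups was 0.175 over 17298 genes, and the labels pair the samples by nothing but the replicate number. The detection rates were alike across these numbers, for control replicate 1 with embelin replicate 2 and for control replicate 2 with embelin replicate 1. The numbers called higher and lower after adjustment were 221 and 99 as reported, 422 and 277 with normexp, 126 and 33 with the deposited table, 419 and 345 when all 4 arrays had to be well above background, and 566 and 495 with trend and robust. The number lower was 63 with quantile normalization, 56 with the mean over probes and 65 with each probe on its own. Of the 9 genes, 1 was called higher (FST) with all 4 arrays well above background and with trend and robust. Called lower were 2 (BAMBI and SMAD6) in these same settings and with normexp, and 0 with the deposited table (BAMBI at an adjusted p of 0.0508). By the methods' rule normexp left 368 genes lower and 0 of the 9 genes higher, each probe on its own gave 1198 higher, and with 1 array left out 672 to 1146 genes were higher and 582 to 1116 lower.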
